A study of Mus musculus with 5 samples.

Results

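Neutrophil and granulocyte maturation genes were examined in whole mouse knee joints, which contain bone marrow. The members were a list of 38 genes for granule proteins, receptors, oxidase subunits and transcription factors of granulocytes, matched by gene symbol to the probe sets of both value tables, with the brightest probe set taken for each gene. Of the 38 listed genes 34 were measured, out of 12393 genes with a symbol of their own, and Fcnb, Retnlg, Fpr1 and Cebpe had no probe set under their symbol. The arrays held RNA from tibio-femoral joints of male mice aged 3 months on a C57/Bl6:129 hybrid background, either wildtype or double-null for epiphycan and biglycan, 2 small leucine-rich proteoglycans of cartilage and connective tissue. Each pool combined 6 joints of 3 mice, and there were 2 wildtype and 3 double-null pools, whose values were Affymetrix signals. The arrays came as 2 tables of the same 22690 probe sets, called array types here: wildtype pool 2 and double-null pool 3 were type A, and wildtype pool 1 with double-null pools 1 and 2 were type B. Each p-value rests on the spread between pools, moderated by that of other genes of like intensity, and each pool averages over its mice.

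Neutrophils mature in the marrow from promyelocytes, which make the serine proteases and myeloperoxidase of the primary (azurophil) granules. Myelocytes and metamyelocytes then make lactoferrin, cathelicidin and the other contents of secondary and tertiary granules, and the most mature cells carry receptors for chemokines and growth factors and enter the blood. Because each granule set is transcribed at its own stage, early and late granule messages report on different stages of the same lineage. Eosinophils and basophils are separate granulocyte lineages with their own granule proteins.

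The proximal promoters of 5 members are shown because these genes give the early, late and eosinophil sides of the comparison, and because Elane with Prtn3 and Mpo with Epx are close neighbours in the genome. Elane and Prtn3 are adjacent, and 2 protein-coding genes lie between Mpo and Epx in the RefSeq gene table. Each line holds the 250 bases before the start site from RefSeq, build GRCm38.p6, with matches to any of 3 motifs in capitals: TTNNGCAA, bound by C/EBP factors, GAGGAA, the PU box of the factor encoded by Spi1, and AGATAA, bound by GATA factors, each searched on either strand. The windows are chr11:87793534-87793783 on the plus strand, chr10:79886062-79886311 on the plus strand, chr10:79879417-79879666 on the plus strand, chr9:110419558-110419807 on the plus strand and chr11:87875537-87875786 on the minus strand.
Mpo: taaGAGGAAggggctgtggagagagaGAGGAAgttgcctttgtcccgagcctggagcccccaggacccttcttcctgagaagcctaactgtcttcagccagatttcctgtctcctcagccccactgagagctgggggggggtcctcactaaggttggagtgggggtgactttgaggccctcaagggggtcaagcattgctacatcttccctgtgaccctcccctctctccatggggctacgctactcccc
Elane: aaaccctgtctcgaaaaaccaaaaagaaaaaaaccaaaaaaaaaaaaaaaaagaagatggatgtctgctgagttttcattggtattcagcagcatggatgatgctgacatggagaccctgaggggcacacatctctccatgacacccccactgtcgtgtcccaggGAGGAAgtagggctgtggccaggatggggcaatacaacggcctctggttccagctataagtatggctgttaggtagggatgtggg
Prtn3: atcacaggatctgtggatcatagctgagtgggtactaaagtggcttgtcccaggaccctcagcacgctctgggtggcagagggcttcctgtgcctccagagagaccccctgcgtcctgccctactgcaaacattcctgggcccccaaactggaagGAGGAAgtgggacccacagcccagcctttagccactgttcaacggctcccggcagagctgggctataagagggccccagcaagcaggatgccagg
Ngp: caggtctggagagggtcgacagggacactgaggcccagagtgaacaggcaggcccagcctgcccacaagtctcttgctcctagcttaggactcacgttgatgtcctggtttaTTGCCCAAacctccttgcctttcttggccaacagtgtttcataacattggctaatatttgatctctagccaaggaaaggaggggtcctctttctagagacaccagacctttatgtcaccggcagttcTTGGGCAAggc
Epx: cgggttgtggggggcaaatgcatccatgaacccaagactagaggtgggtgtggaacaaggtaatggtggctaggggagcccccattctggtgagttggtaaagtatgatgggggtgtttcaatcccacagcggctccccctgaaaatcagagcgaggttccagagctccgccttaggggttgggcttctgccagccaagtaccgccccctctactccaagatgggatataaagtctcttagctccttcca

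The capitals in Elane and Prtn3 are a PU box on the plus strand of each gene, ending 80 and 90 bases before the start sites. Mpo held 2 PU boxes further out, at 242 and 219 bases, with no other match. Ngp held 2 matches to the C/EBP motif, at 131 and 4 bases, and the Epx window held none of the 3. A promoter was listed for 27 of the 34 measured members. The PU box was found in 14 of these 27, in 4 of 5 early and 9 of 14 late genes, against 23.3% of the 32851 promoter windows in the table. The C/EBP motif was found in 7 of 27, in 0 of 5 early and 5 of 14 late genes (9.56% of all windows), and the GATA motif in 6 of 27 (9.99% of all windows). No matches overlapped each other in a member's window. A match is only a run of letters, so these counts describe the windows and show no binding.

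The joints carried abundant granulocyte message. S100a8 and S100a9, which encode the calcium-binding subunits of calprotectin, were the 2 brightest of all 12393 genes on each of the 5 arrays, and Ngp, encoding neutrophilic granule protein, ranked 3 or 4. Of the 100 brightest genes by mean signal 10 were members: Mpo, Elane, Ltf, Ngp, Camp, Lcn2, Chil3, S100a8, S100a9 and Lyz1. The members together gave between 3.01% and 4.26% of the summed signal of all genes on an array. The dimmest member, Gfi1, encoding a repressor needed for granulocyte differentiation, read between 111 and 186, while none of 27 Bacillus controls exceeded 63.5. All 34 measured members passed the intensity filter.

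Wildtype pool 1 gave the largest share of member signal, 4.26%, followed by double-null pool 2 with 3.87%. The other arrays gave 3.01% to 3.26%. Wildtype pool 1 had the highest signal of the 5 arrays for 21 of the 34 members, and for 17 of the 22 early and late neutrophil genes. Double-null pool 3 was the lowest for 14 members. The same counts were not made over all genes, so they are not shown to be particular to the members. Summed signals of bone and cartilage markers were also highest in wildtype pool 1. The 9 measured bone genes summed to 51040 there and to between 31320 and 41690 on the other arrays, and the 14 cartilage genes to 28010 against 14590 to 22730. Single genes did not all follow. Dmp1, Phex, Comp, Acan and Hapln1 were highest in double-null pool 1, Sp7 and Prg4 in double-null pool 2, and Col11a1, Matn3 and Sox9 in double-null pool 3. The other genes of these lists were highest in wildtype pool 1. Ratios of the 3' to the 5' probe set of Gapdh, a sign of RNA length, were 1.03 to 1.04 on type B and 0.849 to 0.888 on type A, so they followed the array type. The same ratio of Actb did not, at 1.15 and 1.08 on type A and 1.10, 1.25 and 1.18 on type B, and was highest in double-null pools 1 and 2. Bgn, a targeted gene, fell on each of its 3 probe sets (limma adjusted p of 0.0047 or less over probe sets). It read 2000 or more in both wildtype pools and at most 224 in the double-null pools. Epyc, also targeted, read 78.8 and 91.2 in wildtype against 1.29 to 10.8 in the double-null pools. Its log2 fold change was -1.64, and it did not pass the threshold (limma adjusted p = 0.16 over probe sets).

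**Figure D1:**
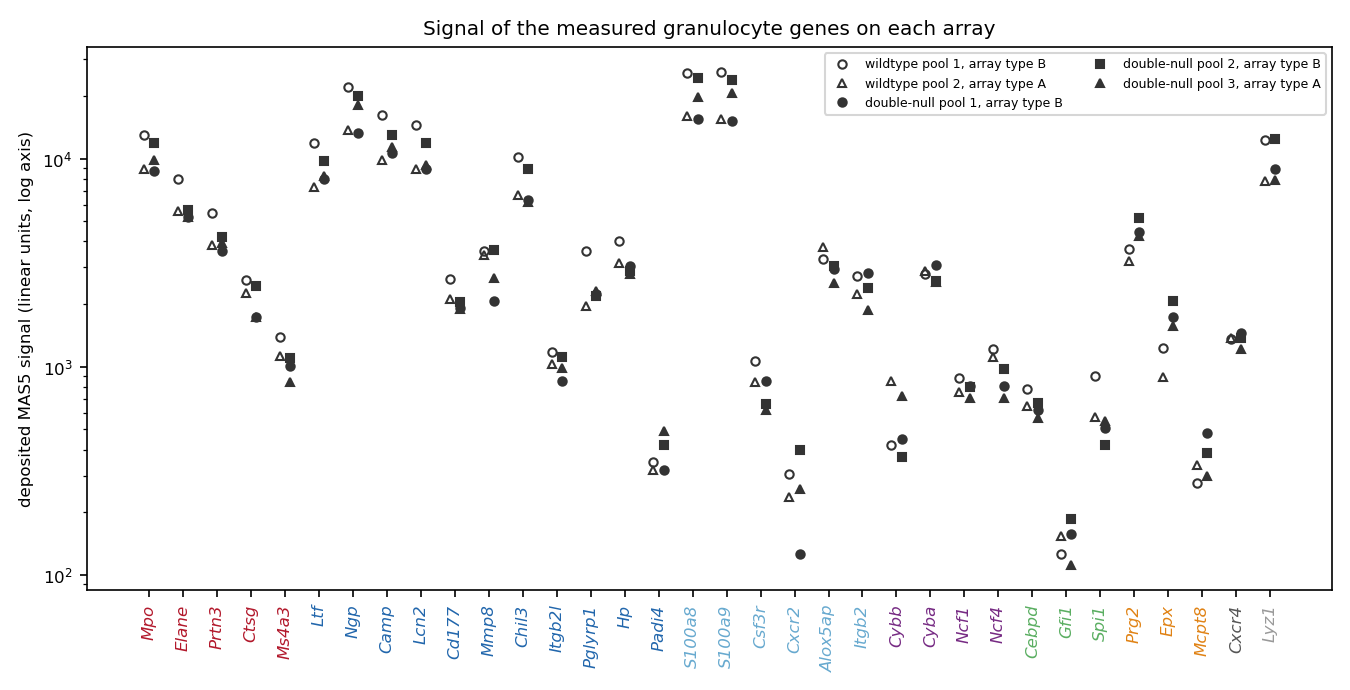
Deposited signal (log axis) of the 34 measured members on each array, with open symbols for the 2 wildtype pools, filled symbols for the 3 double-null pools, and triangles for array type A. Gene names are coloured by role, from the early genes at the left to lysozyme at the right. The wildtype pools lie as far apart as the genotypes for the brightest genes, while the 3 double-null values of Prg2 and Epx lie above both wildtype values.

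Whether granulocyte genes differ between the genotypes was tested with limma on log2(signal + 32) after quantile normalisation, with array type as a term, so that each difference is taken within a table. Differences are given as log2 fold changes, double-null over wildtype. None of the 34 members passed the adjusted threshold of 0.05 over 7436 genes, where 9 genes (0.121%) passed in all, and this count was 0 under each of 17 alternative settings as well. At limma unadjusted p under 0.05 there were 5 members with lower and 2 with higher levels in the double-null pools, against 2.65% and 3.52% of all genes tested. The lower were Elane, Ms4a3, Csf3r, Ncf4 and Spi1, and the higher were Prg2 and Epx. With 2 pools against 3, the smallest p that an exact permutation of pools can give a single gene is 0.1. In bulk tissue, fewer cells of a type and less message per cell cannot be told apart.

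Although no member passed, negative differences were frequent. Of the 34 members 28 had a log2 fold change below 0, with a median of -0.13, against 3877 of the 7436 genes tested and a median of -0.01. Every double-null array lay below the wildtype array of its own table for 17 members, where 18.4% of all genes did, and above it for 2 members, where 15.8% did. On the normalised scale all 3 double-null pools lay below both wildtype pools for 12 members (10.2% of all genes) and above them for 2 (9.47%). On deposited signals the counts were 6 below (10.9% of all genes) and 2 above (8.46%). The 6 were Ms4a3, Cd177, Hp, Alox5ap, Ncf4 and Spi1, and the 2 were Prg2 and Epx on either scale. Genes of 1 cell type share their source and vary together between pools, so these counts do not add up independent differences.

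**Figure D2:**
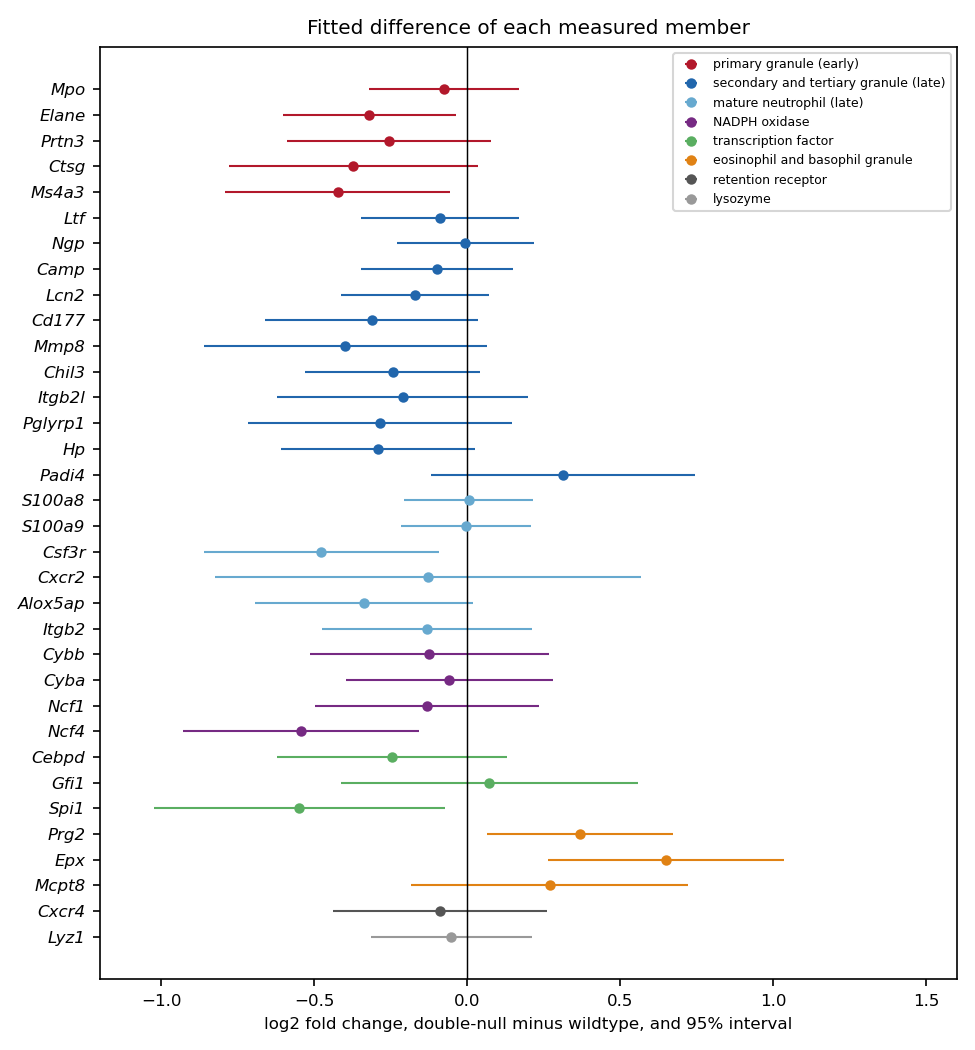
Fitted log2 fold change of each measured member, double-null minus wildtype, with its 95% interval from limma, coloured by role. All 5 early genes (labelled primary granule) lie left of 0 and all 3 eosinophil and basophil genes lie right of it (Mcpt8 down to -0.15 when single pools are left out). No member passed the threshold after adjustment over all genes.

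Each of the 5 early genes had a negative log2 fold change. They were listed together as primary granule genes, though Ms4a3 does not encode a granule protein. Elane, encoding neutrophil elastase, read 7998 and 5582 in wildtype pools 1 and 2, and 5223, 5648 and 5216 in double-null pools 1 to 3. The double-null values were close together and the 2 wildtype values were not, and wildtype pool 2 lay inside the double-null range. The log2 fold change was -0.32 ± 0.13 (SE), with limma adjusted p = 0.74. Within type A it was -0.19, against -0.42 in type B, and without wildtype pool 1 it was -0.19. Ms4a3, a membrane protein of granulocyte and monocyte progenitors, read 1384 and 1122 in wildtype and 1004, 1103 and 846 in double-null pools. It was the early gene whose groups did not overlap on deposited signals, at -0.42 ± 0.17 (limma adjusted p = 0.73).

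Prtn3, encoding proteinase 3, which lies next to Elane, read 5478 and 3838 in wildtype and 3594, 4211 and 3943 in double-null pools. Its difference was -0.02 (type A) and -0.43 (type B), so it lay mostly in the table that holds wildtype pool 1. Ctsg, encoding cathepsin G, the remaining serine protease of these granules, read 2620 and 2270 in wildtype and 1731, 2449 and 1736 in double-null pools, with -0.37 on either type. Mpo, encoding myeloperoxidase, the enzyme that makes hypochlorous acid, read 12986 and 8951 against 8749, 11866 and 9836. Its groups overlapped on deposited signals and its difference was small, at -0.08 with a 95% interval from -0.32 to 0.17. Each of the 5 early genes kept a negative value under all 17 alternatives. Some of these could not change it: the filter and trend settings leave a fold change as it is. So does the probe set rule for genes with 1 probe set, as all 5 were.

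The late genes had smaller differences on average. For the brightest of them the 2 wildtype pools differed from each other by more than the group means did. Ngp read 22196 and 13704 in wildtype and 13320, 20056 and 18070 in double-null pools. Its rank of 3 or 4 on each array leaves quantile normalisation almost no room for a difference, so the fitted -0.01 is set by that step, and with the deposited scaling it was -0.08. Ltf, encoding lactoferrin, the iron-binding protein of secondary granules, read 11932 and 7312 against 8001, 9793 and 8237, at -0.09, or -0.17 with the deposited scaling. Camp, the precursor of the antimicrobial cathelicidin peptide, read 16261 and 9799 against 10597, 12981 and 11409, at -0.10, or -0.175 with the deposited scaling. For all 3 wildtype pool 1 was the highest array, and for Ltf and Camp wildtype pool 2 was the lowest, so the double-null pools lay between the wildtype pools.

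Lcn2, encoding lipocalin 2, which withholds bacterial siderophores, read 14582 and 8872 in wildtype and 8942, 11954 and 9327 in double-null pools, at -0.17 ± 0.11. Chil3, encoding a chitinase-like lectin, read 10147 and 6702 against 6359, 8871 and 6200, at -0.24. Mmp8, the neutrophil collagenase, read 3587 and 3429 against 2071, 3627 and 2675, so double-null pool 2 exceeded both wildtype pools. Its value was -0.40, with a 95% interval from -0.86 to 0.06. Leaving out double-null pool 1 gave -0.20, and leaving out pool 2 of that genotype gave -0.60, where its limma adjusted p of 0.0999 was the lowest of any member under any alternative.

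Of the late genes 3 of medium brightness had their groups apart on deposited signals. Cd177, encoding a surface protein of neutrophils, read 2650 and 2122 in wildtype and 1910, 2049 and 1903 in double-null pools (-0.31, limma adjusted p = 0.84). Hp, encoding haptoglobin, which binds free haemoglobin, read 4042 and 3149 against 3064, 2881 and 2802 (-0.29, limma adjusted p = 0.84), and without wildtype pool 1 it was at -0.17. Alox5ap, the protein that presents arachidonic acid to 5-lipoxygenase for leukotriene synthesis, read 3312 and 3763 against 2946, 3037 and 2520 (-0.34, limma adjusted p = 0.83). The gap was -0.65 (type A) and -0.10 (type B) for Alox5ap, the reverse order to Cd177, at -0.15 and -0.44.

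Pglyrp1, encoding a peptidoglycan recognition protein of granules, read 3603 and 1963 in wildtype and 2240, 2179 and 2315 in double-null pools, and differed in sign between the tables, at 0.23 (type A) and -0.67 (type B). Itgb2l, encoding an integrin beta-chain homologue of neutrophils, was at -0.21. Padi4, the enzyme that citrullinates histones, was dim and had the highest value among late genes, with 348 and 319 in wildtype and 319, 423 and 494 in double-null pools (log2 fold change 0.31, 95% interval -0.12 to 0.74). Its groups overlapped through double-null pool 1.

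Of 6 measured genes of the mature neutrophil 5 had negative values, with a median of -0.13. S100a8 read 25761 and 15941 in wildtype and 15422, 24381 and 19857 in double-null pools, and S100a9 read 26173 and 15490 against 15226, 23854 and 20626. The signals of this gene pair moved together across the 5 arrays. Quantile normalisation gives the same value to the same rank on each array, so genes that held ranks 1 and 2 throughout could not differ, and their fitted values of 0.00 and -0.00 are set by that step. With the deposited scaling they were -0.10 and -0.08, small against the spread between pools. Csf3r, the receptor for granulocyte colony-stimulating factor, read 1062 and 847 in wildtype and 854, 666 and 623 in double-null pools. It had the most negative value of the late genes, at -0.48 ± 0.18 (limma adjusted p = 0.66), with -0.42 (type A) and -0.52 (type B).

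Cxcr2, the chemokine receptor that draws neutrophils out of the marrow, varied most among the double-null pools, from 125 in pool 1 to 400 in pool 2, around wildtype values of 305 and 237. Its value of -0.13 had a 95% interval from -0.83 to 0.57. Itgb2, the beta-2 integrin chain shared by leukocytes, was at -0.13. Cxcr4, the receptor for the marrow chemokine Cxcl12 that holds immature neutrophils in the marrow, was the steadiest member in wildtype, at 1361 and 1380, with 1456, 1374 and 1220 in double-null pools (-0.09).

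Early and late genes were then set side by side. The median log2 fold change was -0.32 over the 5 early genes and -0.17 over the 17 measured late genes, of which 15 were negative, a difference of -0.15. Ngp, S100a8 and S100a9, which normalisation holds near 0, are among the 17. Without them, a choice made after seeing the data, 13 of 14 late genes were negative with a median of -0.23, and early minus late was -0.092. On array type A the medians were -0.19 and -0.11, and on array type B -0.42 and -0.17. As means over genes on the normalised scale, the early difference was -0.45 and -0.24 for double-null pools 1 and 2 against wildtype pool 1, and -0.21 for double-null pool 3 against wildtype pool 2. The same differences for late genes were -0.30, -0.15 and -0.10. Early minus late was -0.16, -0.10 and -0.11. The comparisons of double-null pools 1 and 2 share wildtype pool 1, so they do not repeat each other independently. On the normalised scale the early mean minus late mean of wildtype pool 1 was the highest of the 5 arrays (0.12). With the deposited scaling that of wildtype pool 2 was highest, at 0.099 against 0.067 for wildtype pool 1.

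The size of this gap depended on scaling and on brightness. With the deposited scaling the early minus late gaps were -0.02, -0.08 and -0.17 in the same order, all negative and smaller for double-null pool 1, and late genes of double-null pool 3 lay 0.03 above wildtype pool 2. Without the members among the 100 brightest genes, a choice made after seeing the data, the medians were -0.37 over 3 early genes and -0.29 over 10 late genes, a difference of -0.085. The difference of medians ran from -0.25 to -0.06 when single pools were left out. Without wildtype pool 1, which leaves the contrast of array type A, the medians were -0.19 for early and -0.10 for late genes. No p-value is attached to these list summaries.

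**Figure D3:**
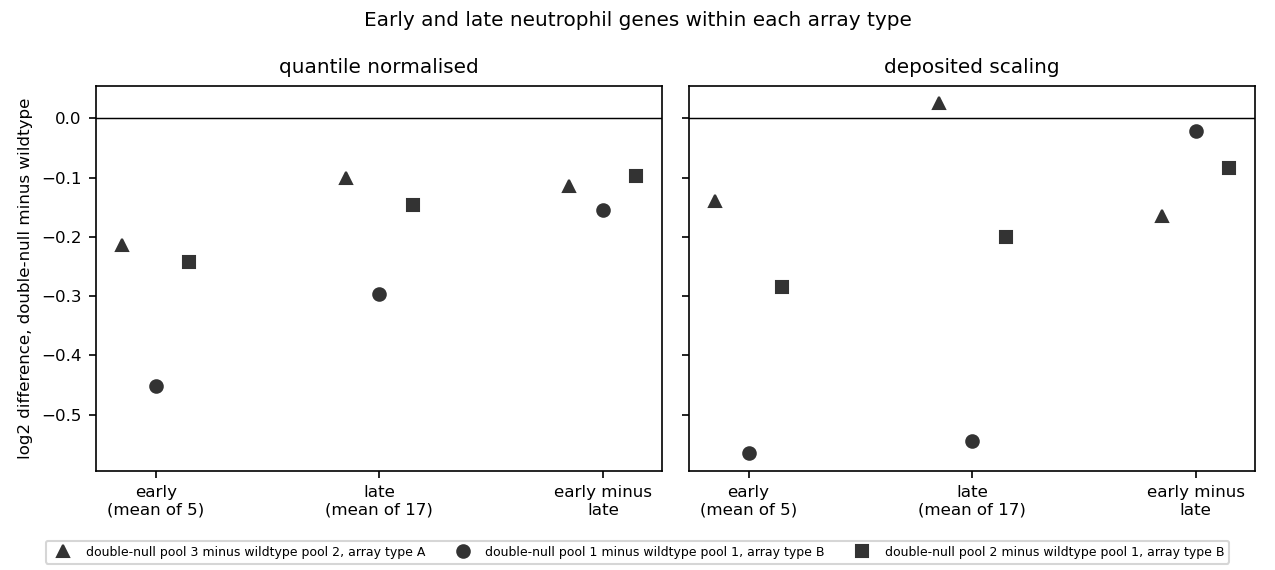
Log2 difference between a double-null pool and the wildtype pool of its own table, as the mean over 5 early and 17 late genes and as early minus late, after quantile normalisation (left) and with the deposited scaling (right). Symbols stand for the 3 double-null pools, of which 1 and 2 share wildtype pool 1. Early genes lie below 0 in every comparison on either scale, late genes in every comparison but double-null pool 3 with the deposited scaling, and early minus late lies below 0 throughout.

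Eosinophil granule genes ran the other way. Epx, encoding eosinophil peroxidase, read 1225 and 889 in wildtype pools 1 and 2, and 1726, 2073 and 1569 in double-null pools 1 to 3. All 3 double-null pools were higher than both wildtype pools, on either scale and within each table. Means were 1057 ± 237 (SD, n = 2) and 1789 ± 258 (SD, n = 3), a log2 fold change of 0.65 ± 0.18 (SE; 95% interval 0.26 to 1.03), with 0.82 (type A) and 0.52 (type B). It had the smallest unadjusted p of the members (limma unadjusted p = 0.0033) and missed the threshold over all genes (limma adjusted p = 0.33). Over the alternatives its value stayed between 0.52 and 0.82 and its limma adjusted p did not go below 0.165.

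Prg2, encoding eosinophil major basic protein, the core of the eosinophil granule, read 3691 and 3233 in wildtype and 4447, 5164 and 4265 in double-null pools. Its groups were apart in the same direction as those of Epx, at 0.37 ± 0.14, with 0.35 (type A) and 0.38 (type B) (limma adjusted p = 0.70), and its value stayed between 0.33 and 0.43 under the alternatives. These 2 were the members whose double-null pools all lay above wildtype. Mcpt8, a serine protease of mouse basophils whose gene adjoins Ctsg, read 277 and 336 against 481, 384 and 300, so its groups overlapped, at -0.15 (type A) and 0.58 (type B).

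A scaling factor shared by an array nearly cancels between the eosinophil and neutrophil peroxidase genes. A difference between arrays that depends on brightness does not, and Mpo is the brighter gene. The log2 signal of Epx minus that of Mpo was -3.37 and -3.29 on the wildtype arrays and -2.32, -2.50 and -2.62 on the double-null arrays. Within tables it was 1.05, 0.87 and 0.66 higher in double-null pools 1 to 3 than in wildtype. For Prg2 minus Mpo the within-table differences were 0.84, 0.61 and 0.26. With this scaling the gaps were thus larger on type B. After quantile normalisation the gap between Epx and Mpo was larger on type A. There Epx was at 0.82 and Mpo at -0.10, against 0.52 and -0.06 on type B, so its size by table depended on scaling. The pair was formed after its values were seen, so no test is given. The summed signal of 9 mast cell markers was 1191 and 1178 in wildtype and 1069 to 1385 in double-null pools, with overlapping groups, and its part in the eosinophil values was not tested. Of the 9, Cma1, Fcer1a, Mcpt4, Ms4a2 and Tpsb2 did not pass the intensity filter. Kit, the stem cell factor receptor of mast cells and early progenitors, read 219 and 209 in wildtype and 319, 270 and 243 in double-null pools, so its groups were apart in the direction of Epx and Prg2 (log2 fold change 0.31, limma adjusted p = 0.87). Cpa3, a mast cell carboxypeptidase, read 148 and 118 against 179, 218 and 109, with overlapping groups. Hdc and Gata2, the remaining mast cell markers that passed the filter, were at 0.06 and -0.05, with overlapping groups. Of all 9 mast cell markers 4 were negative, with a median of 0.01.

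Among the oxidase subunits, which assemble the superoxide-producing enzyme of phagocytes, Ncf4 stood lowest. Ncf4, encoding the p40-phox regulator, read 1217 and 1110 in wildtype and 813, 971 and 710 in double-null pools. The groups did not overlap, and the log2 fold change was -0.54 ± 0.18 (limma unadjusted p = 0.0096, adjusted p = 0.55), with -0.62 (type A) and -0.49 (type B). Ncf1, encoding p47-phox, was at -0.13 on its brightest and -0.25 on its other probe set. Cyba, encoding the small membrane subunit, was at -0.06. Cybb, the large catalytic subunit, read 423, 450 and 370 on type B and 854 and 726 on type A, so its level followed the table more than the genotype (-0.12).

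Among the transcription factors, Spi1, encoding PU.1, which drives myeloid gene expression, read 901 and 572 in wildtype and 511, 422 and 549 in double-null pools. Its groups were apart, at -0.55 ± 0.22 (limma adjusted p = 0.73), but the difference was -0.93 on array type B and -0.04 on array type A, and without wildtype pool 1 only the latter is left. Cebpd, a C/EBP factor of granulocytic differentiation, was at -0.25 and -0.45 on its 2 probe sets. Gfi1 was at 0.07, with opposite signs on types A (-0.40) and B (0.43). Lyz1, encoding a lysozyme, read 12350 and 7848 in wildtype and 8923, 12454 and 7880 in double-null pools. Its 2 bright probe sets may also take up message of the near-identical Lyz2, which read 13936 and 8622 against 8859, 12922 and 8808. Its remaining probe set read at most 77.9.

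**Figure D4:**
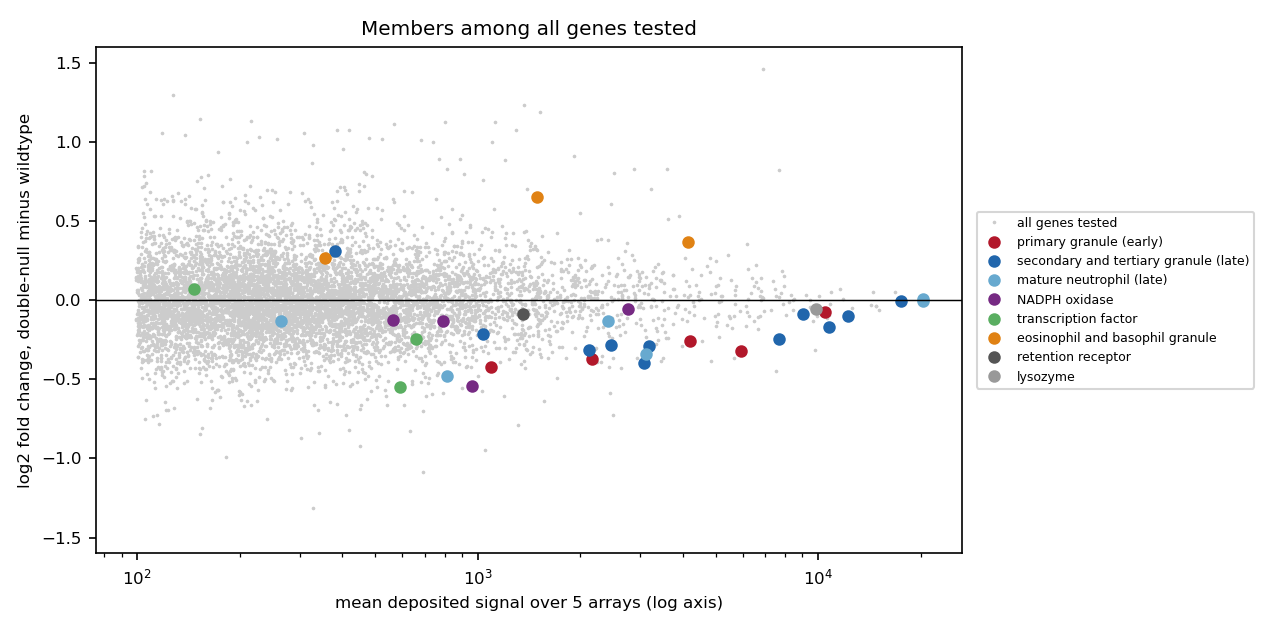
Log2 fold change, double-null minus wildtype, against mean signal (log axis) for all 7436 genes tested (grey) and the members (coloured by role); 3 genes lie outside the plotted range. Most neutrophil members lie below 0, the 3 brightest lie at 0, and Epx and Prg2 lie above it.

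Further granulocyte genes, from a list of 58 that holds no member, also had mostly negative values. Of 45 measured genes 36 had negative values, with a median of -0.15, or -0.19 on type A and -0.11 within type B. In the table of 3 arrays alone 28 were negative and 17 positive. On the normalised scale the double-null pools all lay below wildtype for 7 (10.2% of all genes) and above for 1 (9.47%). On deposited signals 4 lay below (10.9%) and 1 above (8.46%). Of the 42 tested 0 passed the threshold. At limma unadjusted p under 0.05, 5 were lower and 0 higher, against 2.65% and 3.52% of all genes tested. The further granulocyte genes with the smallest p were Lrg1, a leucine-rich glycoprotein of neutrophil granules (-0.47), Wfdc21 (-0.39), and Rac2, the GTPase of the oxidase (-0.43). Next came Anxa3, an annexin (-0.40), Slpi, an inhibitor of elastase (-0.40), and Fcer1g, the Fc receptor gamma chain (-0.39). Wfdc21 read 2703 and 2635 in wildtype and 2014, 2232 and 1947 in double-null pools, with groups apart. Rac2 read 3749 and 2470 against 2228, 2469 and 2281, so wildtype pool 2 lay at the level of double-null pool 2.

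Markers of other cells were summarised in the same way. Of 14 measured macrophage genes 7 were negative (median -0.00), with summed signals of 9200 and 8306 in wildtype and 8119 to 10280 in double-null pools. Of the 11 tested, 0 were lower and 2 higher at limma unadjusted p under 0.05, against 2.65% and 3.52% of all genes tested. These 2 were Mrc1 (0.43) and Cd14 (0.49), with groups apart. Of 15 erythroid genes 8 were negative (median -0.00), with sums of 47060 and 38060 against 43000 to 45620. Of 17 B lineage genes 10 were negative (median -0.04), with sums of 10310 and 10520 against 8867 to 10170. Of these 17 genes 7 lay below wildtype within every table (18.4% of all genes tested) and 3 above it (15.8%). Of the 15 tested, 2 were lower and 1 higher at limma unadjusted p under 0.05, against 2.65% and 3.52% of all genes tested. Of 11 T and NK cell genes 6 were negative (median -0.08), and of 8 megakaryocyte genes 1 was (median 0.10). Of 24 genes of cell division 8 were negative (median 0.03). None of these marker genes passed the threshold. Negative values were also the more frequent among genes of the joint's own tissues, with 7 of 9 for bone (median -0.07), 11 of 16 for muscle (median -0.10) and 9 of 14 for cartilage (median -0.09). Single genes of these tissues had larger fitted differences than any member. Comp of cartilage was at 0.83 (limma adjusted p = 0.11) and Acp5 of bone at -0.73 (limma adjusted p = 0.33). Each had groups apart, and neither passed the threshold. For Acp5 the difference was -0.22 (type A) and -1.10 (type B), and for Comp 0.98 and 0.71. Muscle varied most between tables, with sums of 101500 and 120000 on type A and 53520 to 79540 on type B. The part of these other cells in the granulocyte values was not tested.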

How the data were processed

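Biotin-labelled RNA of whole joints was measured on Affymetrix arrays, per the labels' protocols. What the authors deposited were linear MAS5 signal intensities, per the submitters' processing notes. No version or target of the MAS5 scaling is given in the sources used here. The 2% trimmed mean was about 250.1 on every array.

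Members and gene lists were chosen with earlier results of these data known. The constant 32 was added to each signal before log2, and the 5 arrays were then brought to shared quantiles. Of 22690 probe sets 20393 had 1 gene symbol, 691 several and 1606 none, and 20364 took their current symbol from the GRCm38.p6 table by Entrez number. Of 12393 genes the 7436 brightest, past the 40th percentile of mean level (signal 98.5), were tested. The test was limma's moderated one (version 3.58.1, R 4.3.3), two-sided, with array type as an additive term, a variance trend on intensity and Benjamini-Hochberg adjustment over these genes, on 2 residual and 9.68 prior degrees of freedom. The fit was tested on simulated data. Targeted genes were fitted over 22626 probe sets. All measured members are named, as are the 6 further granulocyte genes with the smallest p. Alternatives changed the scaling, constant, filter, array-type term, trend, probe set rule and pools. The number of arrays limits the precision.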

Additional observations from a re-analysis of the deposited data

How the results depend on the processing

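Each genotype rests on few pools, and wildtype pool 1 is the sole wildtype array of its table. In 17 alternatives 22 of 577 member values changed sign, over 11 members, and 0 members changed their side of the threshold. The filter and trend settings change p-values but not fold changes, and the probe set rule changes only genes with over 1 probe set. The 577 thus hold values whose sign could not change.

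The number of genes past the threshold, 9 as reported, was 5 with the deposited scaling (2 higher and 3 lower, against 6 and 3), 2 without the filter, 4 without the array-type term, 2 in the table of 3 arrays alone, 5 without the trend, and 2 to 54 when single pools were left out. Early minus late was -0.24 in the table of 3 arrays and -0.25 to -0.063 over the left-out pools, and the early median was -0.43 to -0.19. Outside the 100 brightest genes, a setting chosen after seeing the data, early minus late was -0.085 and the late median -0.29. Early minus late was -0.092 without the 3 late genes of rank 1 to 4 on every array, also chosen after seeing the data.

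The values could not show whether same-numbered pools belong together. Deviations from the group means, with array type left in, correlated at 0.0021 across genes for wildtype and double-null pools 1, and at -0.18 for pools 2. With 2 wildtype pools their deviations mirror each other, and wildtype and double-null pools 2 are of different array types. With the replicate number as a block in place of the array-type term, 2 genes passed, the early median was -0.29, Itgb2 was 0.058 and Lyz1 0.14.

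S100a8 was -0.10 with the deposited scaling, -0.061 with median centring and -0.0067 with quantile normalisation within tables, where S100a9 was 0.0067. In the table of 3 arrays Cyba was 0.037 and Lyz1 0.055. Over the left-out pools, ranges were -0.037 to 0.032 for S100a8, -0.032 to 0.037 for S100a9, -0.034 to 0.024 for Ngp, -0.17 to 0.010 for Ltf, -0.68 to 0.22 for Pglyrp1, -0.44 to 0.24 for Cxcr2, -0.40 to 0.43 for Gfi1, -0.15 to 0.59 for Mcpt8, -0.18 to 0.040 for Cyba and -0.19 to 0.064 for Lyz1. The cause of these changes was not tested, other than that leaving out a pool leaves fewer samples.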
